A study of Mus musculus with 2 samples.

Results

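The genes for the proteins of the mitochondrial ribosome were examined in cultured mouse dermal cells after knockdown of β-catenin. Members were all genes whose symbol starts with Mrpl (large subunit) or Mrps (small subunit) followed by a digit. Of 19938 genes measured through probe sets with exactly 1 gene symbol, 77 were members, 48 of the large and 29 of the small subunit. RefSeq lists 78 such genes beside 6 pseudogenes. The remaining gene, Mrpl53, shares its probe set with Ccdc142, and that probe set read 5.35 on the β-catenin siRNA array and 5.82 on the control siRNA array (log2 values).

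The cells came from the back skin dermis of newborn (P0) C57BL/6 mice and were grown for 24 h before transfection. They received siRNAs against β-catenin, the product of Ctnnb1, or a control siRNA, each at 10 nM for 48 h. Each group had 1 array, an Affymetrix whole-transcript array hybridised from 300 ng of total RNA. The labels do not say how many pups or dishes stood behind an array, and both groups were transfected.

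The mitochondrial ribosome translates the few messages encoded by mitochondrial DNA, all of which specify subunits of the respiratory chain and the ATP synthase. Its ribosomal RNAs are mitochondrial transcripts, whereas all its proteins are encoded in the nucleus, made in the cytosol and imported. Some of these proteins have counterparts in bacterial ribosomes and others are found in mitochondria alone. Cells in which it fails, dermal fibroblasts of patients among them, make less of the respiratory complexes that hold mitochondrially encoded subunits.

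Every value is a log2 value after robust multi-array averaging (RMA), and every difference is the value on the β-catenin siRNA array minus that on the control siRNA array. With 1 array per group no test was possible, and no spread between cultures could be measured. In bulk RNA, fewer cells of a type and less RNA per cell cannot be told apart. A gene passed the level filter if the higher of its 2 values was at least 5.13, the median of all gene means, and 10197 genes did. Of the members 76 passed, and Mrpl42, which encodes a mitochondria-specific large subunit protein, did not, with 4.69 on both arrays.

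Ctnnb1 read 9.34 on the β-catenin siRNA array and 10.48 on the control siRNA array, which is 45.2% of the control signal. All 10 fibroblast markers passed the filter, at 7.89 to 12.71 on the β-catenin siRNA array and 6.60 to 12.77 on the control siRNA array. The β-catenin siRNA value was the larger in 7 of these 10, beside 4671 of the 10197 genes passing the filter. For 3 markers, Lum, Dcn and Pdgfra, the gap reached 1.5-fold, as it did in that direction for 281 of the 10197. The median difference of the 10 was 0.19. None of 6 leukocyte, 5 skeletal muscle or 3 measured Schwann cell markers passed, and 1 of 5 endothelial and 2 of 5 melanocyte markers did. Among these the endothelial marker Kdr and the melanocyte marker Pmel passed only through the control siRNA array. Of 6 keratinocyte markers 5 were higher and 1, Krt15, was lower (-0.55) on the β-catenin siRNA array. Without the filter, 8304 of all 19938 genes were higher. Of the 6 markers, 4 passed, and all 4 were higher, by 0.50 to 1.02. Among them Epcam passed only through the β-catenin siRNA array, which fixed its sign. Krt15 and Trp63 did not pass. The summed linear signal of the 6 was 944 on the β-catenin siRNA array and 569 on the control siRNA array. The part of keratinocyte and fibroblast markers in the results below was not tested.

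The promoters of 4 members are shown first because these genes had the lowest and the highest difference in each subunit. Sequences are those of RefSeq (GRCm38.p6), 250 bases before and 50 bases from the annotated start, written 5′ to 3′ on the strand of the gene. Entries were found for 68 of the 77 members, and where a gene had several starts the table's first was taken. Capitals mark matches, on either strand, to the motifs named below. Mrpl28 was level with Mrpl43 for the lowest large subunit difference and comes first by name.
Mrpl28, chr17:26123253-26123552, plus strand: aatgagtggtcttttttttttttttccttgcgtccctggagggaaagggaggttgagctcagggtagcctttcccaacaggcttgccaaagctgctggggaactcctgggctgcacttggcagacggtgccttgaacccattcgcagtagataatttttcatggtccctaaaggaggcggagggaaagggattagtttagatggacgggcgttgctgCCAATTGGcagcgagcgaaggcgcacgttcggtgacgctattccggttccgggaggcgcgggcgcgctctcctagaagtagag
Mrpl50, chr4:49521034-49521333, minus strand: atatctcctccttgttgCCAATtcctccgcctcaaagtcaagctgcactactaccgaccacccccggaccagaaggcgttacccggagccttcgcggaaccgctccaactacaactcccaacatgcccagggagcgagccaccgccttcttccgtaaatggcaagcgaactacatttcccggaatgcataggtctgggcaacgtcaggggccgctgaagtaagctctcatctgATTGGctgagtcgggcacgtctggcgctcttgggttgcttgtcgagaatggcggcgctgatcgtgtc
Mrps24, chr11:5707652-5707951, minus strand: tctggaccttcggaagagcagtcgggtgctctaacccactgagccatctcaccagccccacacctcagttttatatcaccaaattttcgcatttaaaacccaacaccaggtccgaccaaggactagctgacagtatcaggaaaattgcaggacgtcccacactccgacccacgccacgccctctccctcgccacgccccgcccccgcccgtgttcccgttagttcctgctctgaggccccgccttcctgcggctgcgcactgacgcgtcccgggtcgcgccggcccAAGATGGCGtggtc
Mrps17, chr5:129715247-129715546, plus strand: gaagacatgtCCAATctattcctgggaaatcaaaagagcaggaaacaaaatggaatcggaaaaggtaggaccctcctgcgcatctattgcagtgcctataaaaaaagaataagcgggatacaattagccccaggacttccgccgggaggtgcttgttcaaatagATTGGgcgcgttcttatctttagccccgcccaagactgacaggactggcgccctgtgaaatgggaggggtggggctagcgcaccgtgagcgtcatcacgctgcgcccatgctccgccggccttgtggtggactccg

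In these windows the capitals mark the CCAAT box in Mrpl28, Mrpl50 and Mrps17 and a YY1 motif in Mrps24. In Mrpl28 the letters overlap with their own reverse complement, starting 33 and 30 bases before the start. The Mrpl50 window had CCAAT at 233 and its complement at 17 bases before the start, and the Mrps17 window at 240 and 86. The YY1 motif of Mrps24 began at base 37 of the transcript. The low and the high member of the large subunit therefore held the same motif.

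Motifs of factors known to act at promoters of nuclear genes for mitochondrial proteins were counted in all 68 windows. The ETS motif CCGGAAG, bound by GABP, was present in 24 member windows (35.3%), against 9.12% of the windows of all 27025 genes and 19.6% of the 8279 windows of genes that passed the filter. The NRF1 motif, searched as GCGCANGCG, was present in 16 (23.5%), against 6.47% of all windows and 15.1% of those of genes passing the filter. The YY1 motif AAGATGGCG was present in 8 (11.8%), against 1.49% and 3.51%. None of these motifs contains another.

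The other motifs showed smaller gaps or few matches. CCAAT was found in 38.2% of member windows, against 37.9% of all windows and 38.7% of those of genes passing the filter. The motif AAGGTCA of oestrogen-related receptors was found in 4 members (5.88%, against 4.66% and 2.74%), and the E-box CACGTG in 5 (7.35%, against 7.24% and 10.7%). The TCF/LEF motif ATCAAAG, named for the DNA-binding partners of β-catenin, matched no member window, 3.72% of all windows and 2.54% of those of genes passing the filter, which says only that these letters are not in these 300 bases. Member windows had a median GC content of 58.2%, against 61.7% in genes passing the filter and 52.7% in all genes. The part of base composition in these shares was not tested.

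Members with and without a motif were set side by side, with no test. The median difference was -0.15 for the 24 members with the ETS motif and -0.068 for the 44 without it. For NRF1 it was -0.047 in 16 members with the motif and -0.12 in 52 without. For YY1 it was -0.084 in 8 with and -0.12 in 60 without.

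Many members sit back to back with another gene. A start on the opposite strand within 1000 bases upstream was found for 25 of the 68 members (36.8%), against 11.5% of 17492 protein-coding genes. The share among genes passing the level filter, given above for motifs, was not computed for such pairs. In 1 such pair both genes are members, Mrpl46 of the large and Mrps11 of the small subunit, whose starts lie 42 bases apart on chromosome 7. In another, Mrps12 lies 147 bases from Sars2, the mitochondrial seryl-tRNA synthetase gene. The windows of Mrpl46, with the stretch between both starts in capitals, and of Mrps12, with its 4 CCAAT matches and 1 ETS match in capitals, are shown because each serves a pair of mitochondrial translation genes.
Mrpl46, chr7:78783040-78783339, minus strand: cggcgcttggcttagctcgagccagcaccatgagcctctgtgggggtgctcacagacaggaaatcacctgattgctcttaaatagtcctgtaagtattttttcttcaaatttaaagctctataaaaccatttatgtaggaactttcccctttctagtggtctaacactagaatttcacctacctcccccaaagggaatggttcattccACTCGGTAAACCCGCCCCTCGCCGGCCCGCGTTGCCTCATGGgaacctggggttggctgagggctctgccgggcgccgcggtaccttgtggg
Mrps12, chr7:28741772-28742071, minus strand: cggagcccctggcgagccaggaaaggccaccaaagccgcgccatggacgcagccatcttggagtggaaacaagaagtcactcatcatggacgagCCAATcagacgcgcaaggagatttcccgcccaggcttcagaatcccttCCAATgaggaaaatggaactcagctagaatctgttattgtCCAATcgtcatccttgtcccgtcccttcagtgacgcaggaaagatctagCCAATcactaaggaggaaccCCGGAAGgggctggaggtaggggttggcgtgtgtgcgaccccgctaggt

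Mrpl46 read 6.34 on the β-catenin siRNA array and 6.60 on the control siRNA array. Its neighbour Mrps11 read 5.61 on the β-catenin siRNA array and 5.68 on the control siRNA array. Both were lower, by -0.27 and -0.077. Mrps12, a counterpart of the bacterial decoding-site protein S12, read 5.06 on the β-catenin siRNA array and 5.39 on the control siRNA array, with the β-catenin siRNA value under the filter. Sars2 read 5.62 on the β-catenin siRNA array and 5.75 on the control siRNA array. Over the 19 pairs in which both genes passed the filter, 7 pairs were lower and 4 higher in both genes. The 7 include Mrps12 with Sars2, where Mrps12 passed only through the control siRNA array, which fixed its sign. Such counts were not made for gene pairs in general. In 6 pairs the member was lower and the partner higher, and in 2 the member was higher and the partner lower. The 6 include Mrpl27, Mrpl41 and Mrpl51, whose probe sets have identifier neighbours on another chromosome, as described further on, and their other probe sets gave 0.0, -0.12 and 0.058. Eme1, the partner of Mrpl27, read 5.20 on the β-catenin siRNA array and 5.01 on the control siRNA array. It passed the filter only through the former, which fixed its sign. Many of the differences in these pairs are small, such as 0.0015 for Hira beside Mrpl40, so the signs are a description only.

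As a group, the members were slightly lower after β-catenin siRNA. Of the 76 that passed the filter, 52 (68.4%) were lower, against 52.8% of all genes passing it, and 24 were higher. Their median difference was -0.12, against -0.018 over all genes passing the filter. Between the quartiles the members ran from -0.22 to 0.038, and all genes from -0.16 to 0.13. The quartiles of the members' own levels were 6.43 and 7.80, and the 3607 genes between those levels had a median difference of -0.017 with 52.6% lower. No p-value stands behind this shift.

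Past 1.2-fold, the members departed from the background more on the higher than on the lower side. At least 1.2-fold lower were 14 members (18.4%), against 13.7% of all genes, a share near the background. At least 1.2-fold higher was 1 member (1.32%), Mrps17, against 11.7% of all genes. Such genes were also few in lists described further on, with 0 of 73 for the respiratory chain and ATP synthase and 2 of 53 for the cytosolic ribosome. For mitochondrial transcription and RNA processing the count was 2 of 22. At least 1.5-fold in either direction was 1 member, Mrps24, against 4.6% of all genes. The SD of the difference over the 76 members was 0.18. As a guide to scale, the robust SD over all genes passing the filter was 0.22, and 55 of the 76 members lay within that distance of 0. Probe sets of the same gene differed with a pooled SD of 0.20 over 758 genes, and 45 of the 76 members differed by no more than that.

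**Figure D1:**
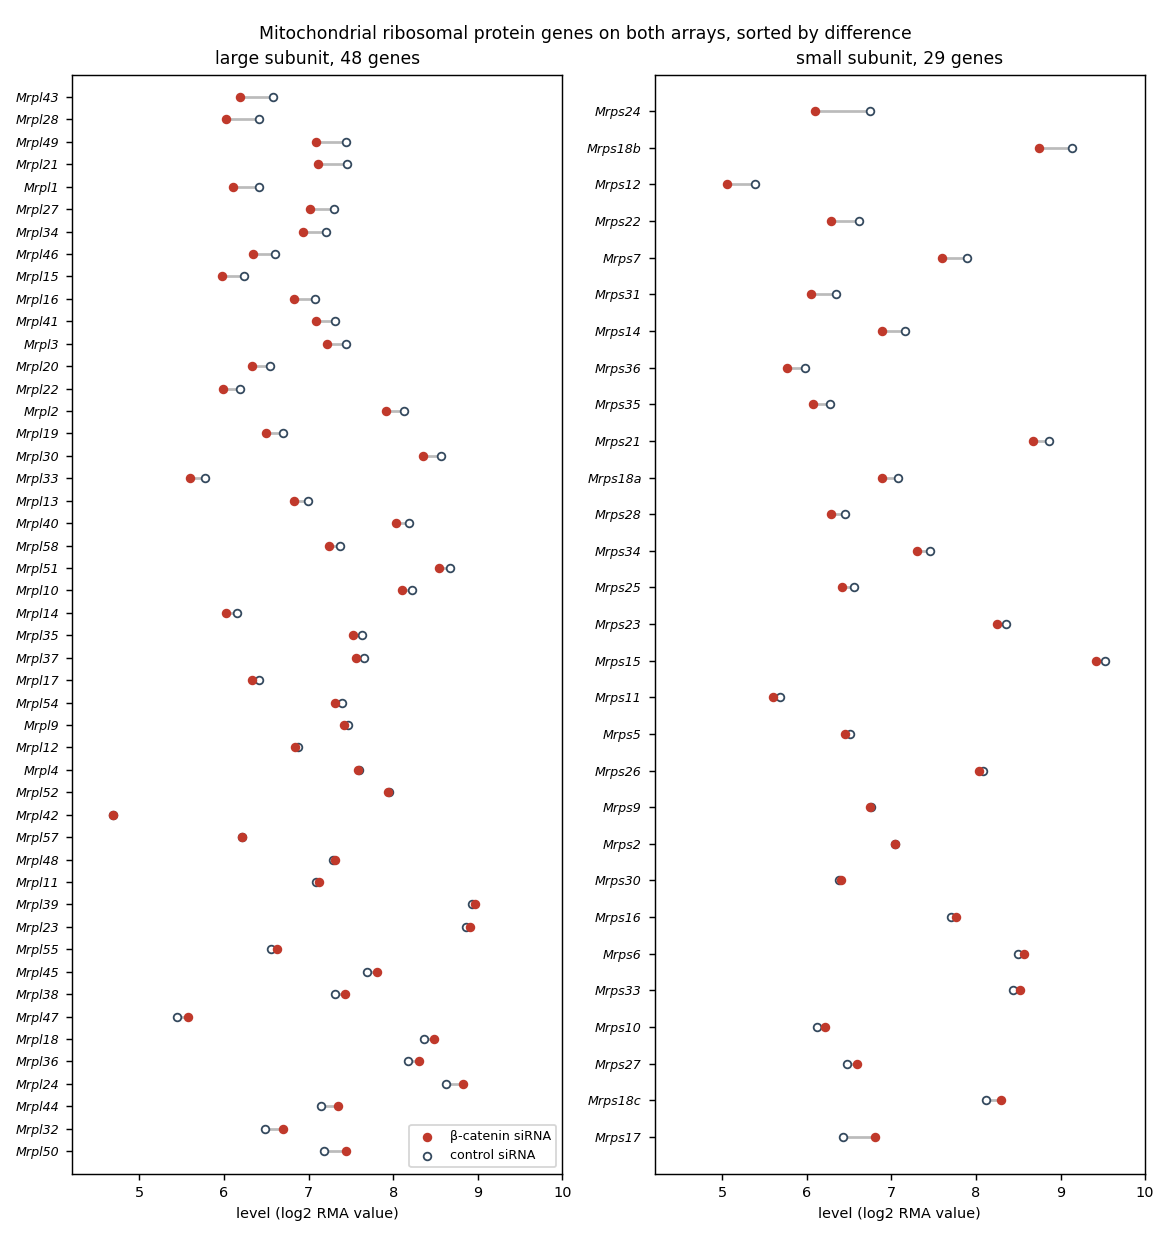
Log2 RMA values (horizontal axis) of all 77 members, 1 row per gene sorted by difference, with β-catenin siRNA as filled and control siRNA as open circles. In the large subunit 32 genes and in the small subunit 20 have the β-catenin siRNA value to the left of the control siRNA value, and the longest gap is that of Mrps24 (-0.65).

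The large and the small subunit had nearly the same median. The median difference was -0.12 for the 47 large subunit genes that passed the filter and -0.11 for the 29 small subunit genes, and the medians differed by -0.0050 (large minus small). By means the difference had the opposite sign, 0.018. In the large subunit 32 of 47 genes (68.1%) were lower, and in the small subunit 20 of 29 (69.0%). The SD of the difference among genes was 0.17 in the large and 0.20 in the small subunit. Whether the subunits differ could not be tested.

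Assignment by symbol departs from the particle for some genes. In the mammalian structure Mrps30 and Mrps18a belong to the large subunit, and Mrps36 is now known as a component of the 2-oxoglutarate dehydrogenase complex. Mrps30 read 6.40 on the β-catenin siRNA array and 6.38 on the control siRNA array. Mrps18a read 6.89 on the β-catenin siRNA array and 7.07 on the control siRNA array, and Mrps36 read 5.76 on the β-catenin siRNA array and 5.97 on the control siRNA array. The difference of Mrps36, -0.21, is shared to 5 decimals by 71 of 21789 probe sets with 1 symbol.

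Large subunit genes with the lowest differences came from conserved and mitochondria-specific proteins alike. Mrpl28, a counterpart of bacterial L28, read 6.03 on the β-catenin siRNA array and 6.41 on the control siRNA array, or 76.5% of the control signal. Mrpl43, a mitochondria-specific protein, read 6.19 on the β-catenin siRNA array and 6.58 on the control siRNA array. Their differences, -0.39 each, were the same to 5 decimals in these 2 probe sets and in no other with 1 symbol. All of the 6 lowest were at least 1.2-fold lower. Mrpl49, another mitochondria-specific protein, read 7.08 on the β-catenin siRNA array and 7.45 on the control siRNA array (-0.37). Mrpl21, a counterpart of bacterial L21, read 7.11 on the β-catenin siRNA array and 7.45 on the control siRNA array (-0.35). Mrpl1, the counterpart of the protein of the mobile L1 stalk near the exit site for spent tRNA, read 6.10 on the β-catenin siRNA array and 6.41 on the control siRNA array (-0.31). The last of the 6 lowest was Mrpl27, whose bacterial counterpart reaches towards the peptidyl transferase centre, at 7.01 on the β-catenin siRNA array and 7.31 on the control siRNA array. Its value depends on the probe set, as described further on.

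At the other end, large subunit differences stayed below 1.2-fold. Mrpl50 read 7.44 on the β-catenin siRNA array and 7.19 on the control siRNA array, the highest difference of the subunit at 0.25. Mrpl32 read 6.70 on the β-catenin siRNA array and 6.48 on the control siRNA array (0.22). Its product is cut by the m-AAA protease of the inner membrane before it joins the ribosome. Mrpl44, a protein with an RNase III-like fold, read 7.35 on the β-catenin siRNA array and 7.15 on the control siRNA array (0.20). Mrpl24 read 8.82 on the β-catenin siRNA array and 8.62 on the control siRNA array (0.20). Mrpl36 and Mrpl18, counterparts of bacterial L36 and L18, differed by 0.13 and 0.12.

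Among small subunit genes, Mrps24 stood apart from the other members. It encodes the counterpart of bacterial S3, a protein near the mRNA entry site, and read 6.10 on the β-catenin siRNA array and 6.75 on the control siRNA array. That is 63.8% of the control signal, a difference of -0.65, and the next lowest member of either subunit was at -0.39. Mrps18b read 8.75 on the β-catenin siRNA array and 9.13 on the control siRNA array (-0.38). Mrps22, a mitochondria-specific protein whose human gene is mutated in a mitochondrial disease, read 6.29 on the β-catenin siRNA array and 6.62 on the control siRNA array (-0.33). Mrps7, a counterpart of bacterial S7 in the head of the subunit, read 7.60 on the β-catenin siRNA array and 7.90 on the control siRNA array (-0.30). Mrps31, a further mitochondria-specific protein, differed by -0.29 and Mrps12, described above, by -0.33.

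Mrps17, a counterpart of bacterial S17, had the highest difference of all members. It read 6.80 on the β-catenin siRNA array and 6.43 on the control siRNA array, a 1.29-fold difference. Mrps18c read 8.29 on the β-catenin siRNA array and 8.11 on the control siRNA array (0.18). The rest of the 6 highest small subunit differences were those of Mrps27 (0.12), a pentatricopeptide repeat protein, Mrps10 (0.10) and Mrps6 (0.080), counterparts of S10 and S6, and Mrps33 (0.088), a mitochondria-specific protein. These 4 and Mrps18c lay within the pooled SD between probe sets of 1 gene.

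By place in the ribosome, the proteins around the exit of the polypeptide tunnel were more often higher than lower. Growing chains leave the large subunit there and pass to the inner membrane. Of 8 such genes 6 were higher, with a median of 0.079. By comparison, 24 of the 76 members and 4671 of the 10197 genes passing the filter were higher. Besides Mrpl24 and Mrpl44, Mrpl47 (counterpart of L29) differed by 0.12 and Mrpl45, which holds the ribosome at the membrane, by 0.11. Mrpl23 differed by 0.047 and Mrpl39 by 0.041. Lower were Mrpl22, at 5.99 on the β-catenin siRNA array and 6.19 on the control siRNA array, and Mrpl17, at 6.32 on the β-catenin siRNA array and 6.42 on the control siRNA array. The group is small and untested, and all 8 differences lay within the robust SD of all genes.

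The 6 genes for proteins that line the mRNA and tRNA sites of the small subunit were lower by any amount, beside 68.4% of members and 52.8% of all genes. These genes, Mrps12, Mrps7, Mrps14, Mrps11, Mrps5 and Mrps9, had a median of -0.17, and their differences ran from -0.33 to -0.014. Mrps12, the lowest, passed the filter only through the control siRNA array, which fixed its sign, and the group is small and untested. Mrps14 read 6.89 on the β-catenin siRNA array and 7.16 on the control siRNA array (-0.26). Mrps5 read 6.45 on the β-catenin siRNA array and 6.51 on the control siRNA array, but its other probe set had the opposite sign. Mrps9 read 6.75 on the β-catenin siRNA array and 6.76 on the control siRNA array.

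Of 5 genes listed for the stalk that recruits translation factors, 4 were measured, and these differed little. The other, Mrpl53, had only the probe set it shares with Ccdc142, which differed by -0.46. Mrpl10, the stalk base, read 8.11 on the β-catenin siRNA array and 8.23 on the control siRNA array (-0.12). Mrpl12, the stalk protein, differed by -0.028, Mrpl54 by -0.075 and Mrpl11 by 0.037. The median of these 4 was -0.052. Mrpl58, a peptidyl-tRNA hydrolase built into the large subunit that can free stalled chains, read 7.24 on the β-catenin siRNA array and 7.37 on the control siRNA array (-0.13).

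The 3 paralogs of bacterial S18 had differences of both signs. Mrps18c, which takes the place of S18 itself, was higher (0.18). Mrps18b, elsewhere in the small subunit, was lower (-0.38), and Mrps18a, of the large subunit, was lower too (-0.18). The lowest and the highest of the 3 lay on opposite sides of the members' median of -0.12.

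**Figure D2:**
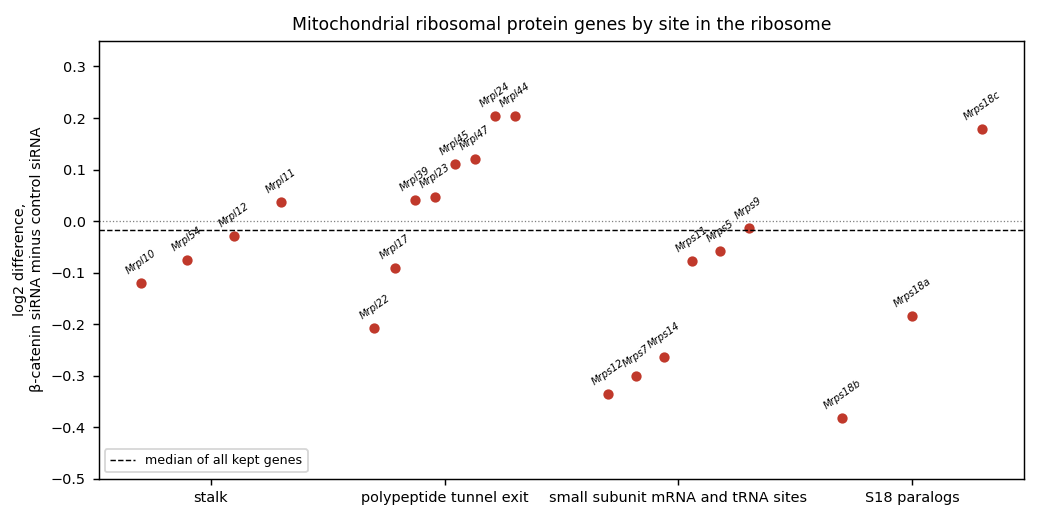
Log2 difference (β-catenin siRNA minus control siRNA, vertical axis) of single genes, grouped by place in the ribosome, 1 point per gene. The 6 genes of the mRNA and tRNA sites all lie below 0, 6 of 8 tunnel exit genes lie above it, and the dashed line is the median of all genes passing the filter (-0.018).

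Conserved and mitochondria-specific proteins had similar differences. The median was -0.14 for 30 large subunit genes with a bacterial counterpart and -0.075 for 17 without. In the small subunit, taken by symbol, the order was reversed, with -0.090 for 18 conserved and -0.15 for 11 mitochondria-specific genes. The former include Mrps18a and the latter Mrps30 and Mrps36, which lie outside this subunit in the particle. Level went with the difference only weakly across the 76 members (Pearson's r = 0.23, across genes that share both arrays). Probe sets differ in sensitivity, so the span of mean values, with Mrps15 (9.47), Mrpl39 (8.95) and Mrps18b (8.94) at the top and Mrpl47 (5.51), Mrps12 (5.22) and Mrpl42 (4.69) at the bottom, is no order of transcript amounts.

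Which probe set stands for a gene mattered for several members. The members had 85 probe sets, and 8 members had more than 1. Probe set identifiers on this array largely follow the genome, so that the 20 nearest annotated identifiers mostly belong to genes of 1 chromosome (18 to 20 of 20 for 81 of the 85, including the 7 that follow). For 7 member probe sets these neighbours lay on another chromosome than the gene itself, and 5 of the 7 were the probe sets standing for their gene. RefSeq lists a pseudogene of Mrpl27 on chromosome 18, of Mrpl48 on chromosome 4, of Mrpl23 on chromosome 2 and of Mrps36 on chromosome 7, and the neighbours of these 4 genes' outlying probe sets were on those chromosomes. Whether such a probe set reads the gene, a processed copy or both was not tested.

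Mrpl27 was the clearest case. The brighter probe set, with neighbours on chromosome 18, gave 7.01 on the β-catenin siRNA array and 7.31 on the control siRNA array. The dimmer one, among neighbours of the gene's own chromosome 11, gave 6.45 on both arrays, identical to 5 decimals. Identical values on both arrays occurred in 1880 of 28944 probe sets (6.50%), 3 of them of members (Mrpl27, Mrpl42 and the dimmer probe set of Mrpl47). The difference of -0.29 given for Mrpl27 comes from the brighter probe set alone.

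The sign also changed between probe sets of Mrpl51, Mrps33 and Mrps5. For Mrpl51 the probe set in use gave -0.13 and the one on its own chromosome 0.058. For Mrps33 they gave 0.088 and -0.024, and for the 2 probe sets of Mrps5, both on chromosome 2, -0.058 and 0.064. Mrpl41 was lower by both (-0.23 in use and -0.12 on its own chromosome), although the probe set on its own chromosome was dim, at 4.45 on the β-catenin siRNA array and 4.57 on the control siRNA array. The pairs of Mrpl23 (0.047 and 0.046) and Mrps36 (-0.21 and -0.20) gave nearly the same difference. Mrpl48 had no probe set among neighbours of its own chromosome 7, and the one in use gave 7.31 on the β-catenin siRNA array and 7.29 on the control siRNA array.

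**Figure D3:**
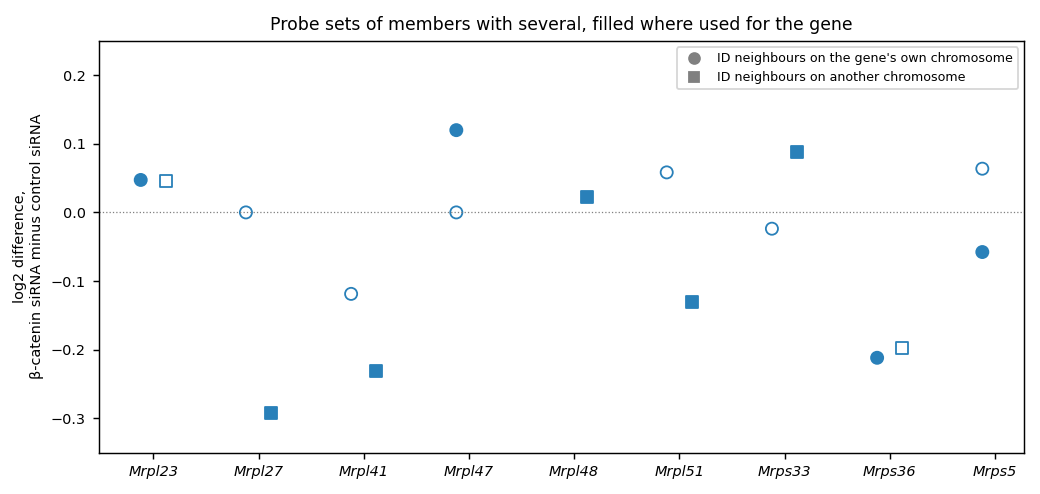
Log2 difference (β-catenin siRNA minus control siRNA, vertical axis) of each probe set for the 8 members with more than 1 and for Mrpl48. Squares mark probe sets whose identifier neighbours lie on another chromosome, and filled symbols the probe set standing for the gene. Mrpl51, Mrps33 and Mrps5 have points on both sides of 0.

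Other genes of mitochondrial translation gave a setting for these values. Of 5 ribosomal proteins with other symbols 4 were measured, with a median of -0.069. Gadd45gip1 read 5.99 on the β-catenin siRNA array and 6.14 on the control siRNA array (-0.16), Chchd1 differed by -0.13, and Dap3, the GTP-binding protein of the small subunit, by 0.11. Of 15 translation factors and helpers that passed the filter 8 were lower (53.3%), with a median of -0.044. That share is near the 52.8% of all genes passing the filter. Taco1, an activator of translation of a cytochrome oxidase message, read 6.23 on the β-catenin siRNA array and 6.65 on the control siRNA array (-0.42), Slirp, an RNA-binding partner of Lrpprc, differed by -0.30, and Mrrf, the ribosome recycling factor, by -0.30.

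Of 19 genes for mitochondrial tRNA charging 12 were lower (63.2%, against 52.8% of all genes), with a median of -0.065. The lowest were Qrsl1 (-0.51) and Gatc (-0.42), both of the amidotransferase that makes mitochondrial glutaminyl-tRNA, and Mars2 (-0.32), the methionyl-tRNA synthetase. Gatb, which encodes the amidotransferase subunit that completes this complex, differed by 0.039. Among 24 ribosome assembly and rRNA modification genes the median was -0.036 and 15 were lower (62.5%). Of the 24, 7 were at least 1.2-fold lower, against 13.7% of all genes. Mtg1, a GTPase of large subunit assembly, differed by -0.47, the pseudouridine synthase family gene Rpusd3 by -0.47 and Gtpbp10, another assembly GTPase, by 0.45.

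Genes of mitochondrial transcription and RNA processing were close to the background. Of 22 such genes 12 were lower (54.5%, against 52.8% of all genes), with a median of -0.019. The largest differences were those of Rexo2, an oligoribonuclease (-0.37), Trmu, a tRNA-modifying enzyme (0.33), and Prorp, the nuclease subunit of mitochondrial RNase P (0.29). Among 33 protein import and processing genes 22 were lower (66.7%), with a median of -0.067. At least 1.2-fold lower were 9 of the 33, against 13.7% of all genes. Dnajc19, a co-chaperone of the import motor that passed the filter only through the control siRNA array, differed by -0.48, Tomm5, of the outer membrane translocase, by -0.47 and Timm17a, of the inner membrane translocase, by -0.37.

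The cytosolic ribosome and the respiratory chain lay on either side of the members. For 53 cytosolic ribosomal protein genes that passed the filter the median was -0.013, with 28 lower (52.8%). Their largest differences were those of Rps19 (-0.43), Rps3a1 (0.38) and Rps21 (-0.34). For 73 nuclear genes of the respiratory chain and ATP synthase, chosen by symbol, the median was -0.20. Of these 63 were lower (86.3%, against 52.8% of all genes). Of the 73, 22 were at least 1.2-fold lower, against 13.7% of all genes. Ndufa7, of complex I, differed by -0.58, Atp5g1, of the ATP synthase, by -0.56 and Uqcr10, of complex III, by -0.48. The members' median of -0.12 fell between these lists, all of which come from the same 2 arrays, and the differences between lists were not tested.

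**Figure D4:**
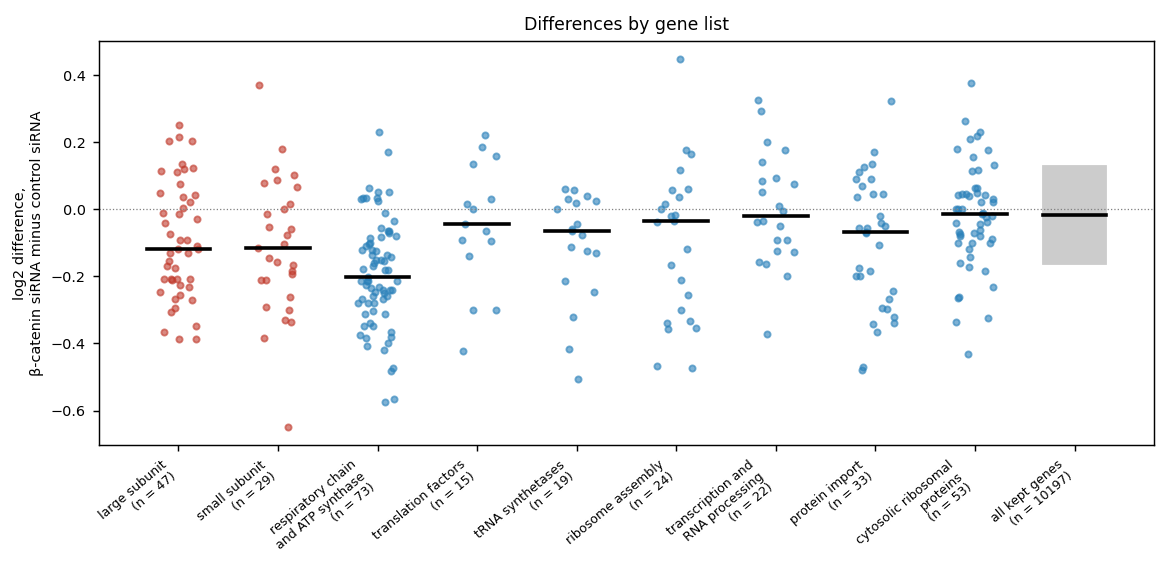
Log2 difference (β-catenin siRNA minus control siRNA, vertical axis) for each gene passing the level filter in 9 lists, with the median as a black bar, and for all 10197 such genes the quartiles as a grey box. Both subunits have medians near -0.12, the respiratory chain is at -0.20 and the cytosolic ribosome at -0.013.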

How the data were processed

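The authors deposited 1 log2 value per probe set and array (28944 probe sets, 2 arrays). RMA is the tool named, per the submitters' processing notes. Its software, version and filters: not given in the sources used here. RMA equalises the arrays' distributions, so differences are relative to other genes, and differences of dim probe sets are shrunk. The deposited values, from 0.485 to 13.5, have the range of log2 values. The array medians were 4.71 (β-catenin siRNA) and 4.68 (control siRNA).

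The platform annotation gave 1 symbol for 21789 probe sets. Several symbols were given for 1621, which were left out, and none for 5534. Current symbols came from RefSeq (GRCm38.p6). Each gene was read from its brightest probe set over both arrays. With 1 array per group there is no test, error or p-value. The number of arrays limits the precision. Sizes of 1.2-fold and 1.5-fold were counted, each beside its share of all genes passing the filter. The members and lists were chosen with earlier results of these data known. The lists of cytosolic ribosomal and respiratory chain genes were formed by symbol.

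Genes named were Ctnnb1, the 6 lowest and 6 highest differences per subunit, the 3 highest and 3 lowest levels, the members grouped by place in the ribosome, the member under the filter, and the 3 largest absolute differences per companion list. Others (Gatb, Hira, Eme1, markers and genes of the probe set comparison) were picked after their values were seen. Counting was tested on simulated data. Alternatives were the mean of probe sets, probe sets with several symbols, no level filter or a stricter one (75th percentile of gene means), median and lowess (span 0.3) centring, and subunit by particle. Python 3.11.15, pandas 2.3.3, numpy 2.4.6 and statsmodels 0.14.6 were used.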

Additional observations from a re-analysis of the deposited data

How the results depend on the processing

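No paired analysis was possible because each group had 1 array, and for the same reason no array could be left out. The members' median stayed below 0 in all 8 alternatives run, from -0.12 to -0.088, and so did the medians of the large (-0.12 to -0.075) and the small subunit (-0.11 to -0.085), in 9 each. The difference between the medians of the large and small subunit had no settled sign. It was 0.034 with the stricter level filter and 0.023 with probe sets on the gene's own chromosome, an alternative added after seeing the data, as was leaving out members with repeated differences. With the stricter filter, which left 41 members, 26 were lower and 6 were lower by 1.2-fold or more. Both are smaller shares than the 52 and 14 of 76 members in the main setting, and the median was -0.092. With that filter 0 members were higher by 1.2-fold or more and 0 passed 1.5-fold. The shares of all genes under it were not computed. Median centring and lowess centring each gave 2 members at least 1.2-fold higher. Among companion lists, cytosolic ribosomal proteins had a median of 0.0051 after median centring and 0.018 after lowess centring, and the ribosomal proteins with other symbols stood at 0.11 with the stricter filter, which left 1 gene. That filter also gave medians of -0.25 for the assembly list (2 genes left, against -0.036 over 24) and -0.095 for translation factors (7 genes left, against -0.044 over 15). In all, 120 of 131 values recomputed under alternatives kept their sign and size within the margins used, which were 1.5 times for counts and the 95% binomial order-statistic interval over genes for medians. That interval takes genes of the same 2 arrays as independent and is wide for short lists. The stricter-filter medians of the assembly list and of translation factors therefore counted as kept. Some of the 131 values could not change. Admitting several symbols, using own-chromosome probe sets and leaving out repeated differences altered members only, so companion list medians stayed the same. Median centring cannot change the difference between subunits. The tally therefore overstates how much was tried and how little the values moved.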
